A study of Homo sapiens with 6 samples.

Results

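The 41 genes described here carry glucose into the cell, break it down to pyruvate, exchange pyruvate with lactate, and set how much pyruvate enters the mitochondrion. They were taken by symbol from a list of glucose transporters, glycolytic isoenzymes, lactate exporters and the kinases and phosphatases that control phosphofructokinase and pyruvate dehydrogenase, and all 41 were found among the 35322 gene symbols counted. PKM was not in the list. RNA was sequenced in 22Rv1, a long-established line of human prostate cancer cells, from 3 groups of untreated 22Rv1 cells with 2 libraries each. The control group is labelled WT, and the groups ZM11-kd1 and ZM11-kd2 are labelled as knockdowns of ZMYND11, a chromatin reader protein. The study describes the sequenced cells as stable lines in which the knockdowns carried hairpin RNAs against ZMYND11 and the controls a control hairpin, whereas the labels give the control genotype only as WT. Which hairpin each knockdown carried is not given in the sources used here. The labels do not say that libraries of 1 group came from separate cultures, and p-values then measure only the spread between these libraries.

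In glycolysis a cell phosphorylates glucose with hexokinase, commits it with phosphofructokinase and ends with pyruvate, which lactate dehydrogenase turns into lactate or which pyruvate dehydrogenase turns into acetyl-CoA in mitochondria. Most steps have several isoenzymes that differ in tissue, in affinity and in how they are regulated, and tumour cells often use a set of isoenzymes that differs from that of the tissue they came from. Prostate epithelium is known for an unusual citrate metabolism, and prostate tumours for a late rise in glucose use.

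The libraries held 26844128 to 38193748 counts. Levels are given as CPM, which are counts set to a common library size by the TMM method of edgeR, and a gene was called when its adjusted p in the edgeR quasi-likelihood test was under 0.05. ZMYND11 itself was at 141 and 135 CPM in the control libraries, 27.7 and 26.1 in ZM11-kd1 and 21.6 and 22.7 in ZM11-kd2. Its log2 fold change was -2.35 in ZM11-kd1 (SE 0.07, adjusted p = 5e-13, edgeR) and -2.64 in ZM11-kd2 (SE 0.07, adjusted p = 3.78e-13, edgeR). All 10 markers of prostate luminal epithelium were above 3 counts in every library, with summed levels of 2851 to 2875 CPM in control, 3707 to 3736 in ZM11-kd1 and 4090 to 4106 in ZM11-kd2. Of 4 endothelial markers KDR was at 0 in every library, and of 5 leukocyte markers CD3E was. The 6 fibroblast markers, 3 of which were above 3 counts in every library, summed to 33.2 to 35.9 CPM in control, 86.6 to 87.2 in ZM11-kd1 and 44.3 to 44.7 in ZM11-kd2. Most of that sum was COL1A1, whose counts were 728 and 739 in control, 2542 and 2197 in ZM11-kd1 and 1075 and 1110 in ZM11-kd2. In bulk RNA, fewer cells of a type and less RNA per cell cannot be told apart, and the part of these markers in the results below was not tested.

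**Figure D1:**
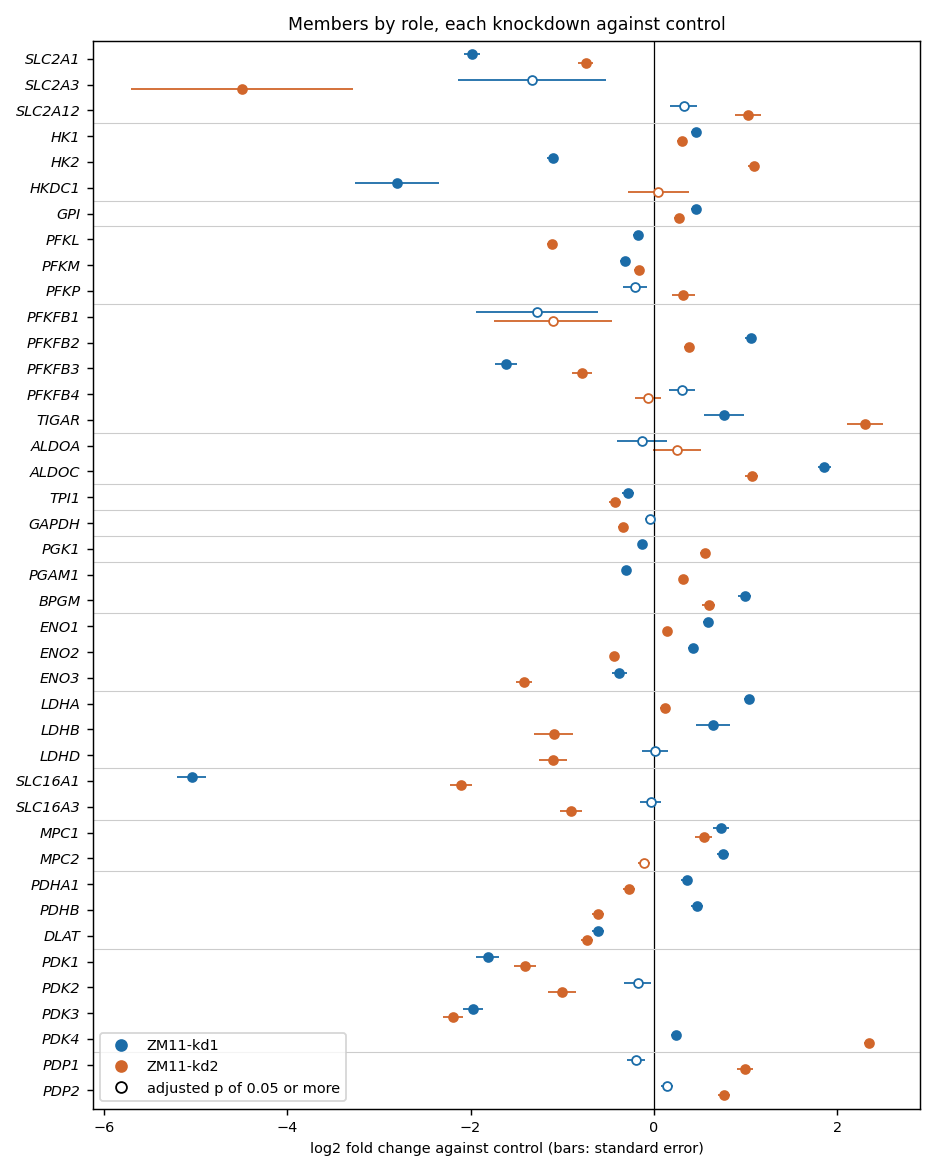
Log2 fold change of each of the 41 genes against control (horizontal axis) in ZM11-kd1 (blue) and ZM11-kd2 (orange), in the order of their roles, with grey lines between roles, bars for the standard error and open points for an adjusted p of 0.05 or more. SLC16A1 lies farthest to the left among the well-counted genes, PDK4 and TIGAR lie far to the right in ZM11-kd2 alone, and HK2 lies on opposite sides of 0. The points of SLC2A3 rest on at most 15 counts in a library.

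All 41 genes passed the filter on low counts. In ZM11-kd1 15 of them were called higher and 14 lower than in control, where 38.2% of all genes tested were called higher and 39.8% lower. In ZM11-kd2 17 were called higher and 19 lower, where 36.5% and 36.9% of all genes were. Between the knockdowns, 15 were higher and 19 lower in ZM11-kd2 than in ZM11-kd1, against 34.9% and 33.8% of all genes. Most genes tested were called in each comparison with control, so the counts of members say little about them, and the description turns on which isoenzymes rose and fell. Of the called members, 7 of the 15 rises and 12 of the 14 falls in ZM11-kd1 kept their call in every alternative processing that tested them, as did 13 of the 17 rises and 18 of the 19 falls in ZM11-kd2. Scaling matters most for ZM11-kd1. With library totals alone, which shift the median log2 fold change of all genes from -0.03 to -0.38 in ZM11-kd1 and to -0.20 in ZM11-kd2, the members called higher and lower were 7 and 22 in ZM11-kd1 and 13 and 20 in ZM11-kd2. Over 15950 genes, which are not independent replicates, Spearman rho between GC content and the log2 fold change was 0.191 in ZM11-kd1 and -0.0329 in ZM11-kd2, and rho for exon length was -0.322 and -0.121.

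The comparisons with control share the control libraries, so the values of both are given side by side. Called higher in both were HK1, GPI, PFKFB2, TIGAR, ALDOC, BPGM, ENO1, LDHA, MPC1 and PDK4, and called lower in both were SLC2A1, PFKL, PFKM, PFKFB3, TPI1, ENO3, SLC16A1, DLAT, PDK1 and PDK3. Another 7 genes, HK2, PGK1, PGAM1, ENO2, LDHB, PDHA1 and PDHB, were called in opposite directions. The share of all genes called so was not computed, so this count does not set the members apart. HKDC1 and MPC2 were called in ZM11-kd1 alone, and SLC2A3, SLC2A12, PFKP, GAPDH, LDHD, SLC16A3, PDK2, PDP1 and PDP2 in ZM11-kd2 alone. PFKFB1, PFKFB4 and ALDOA were called in neither.

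**Figure D2:**
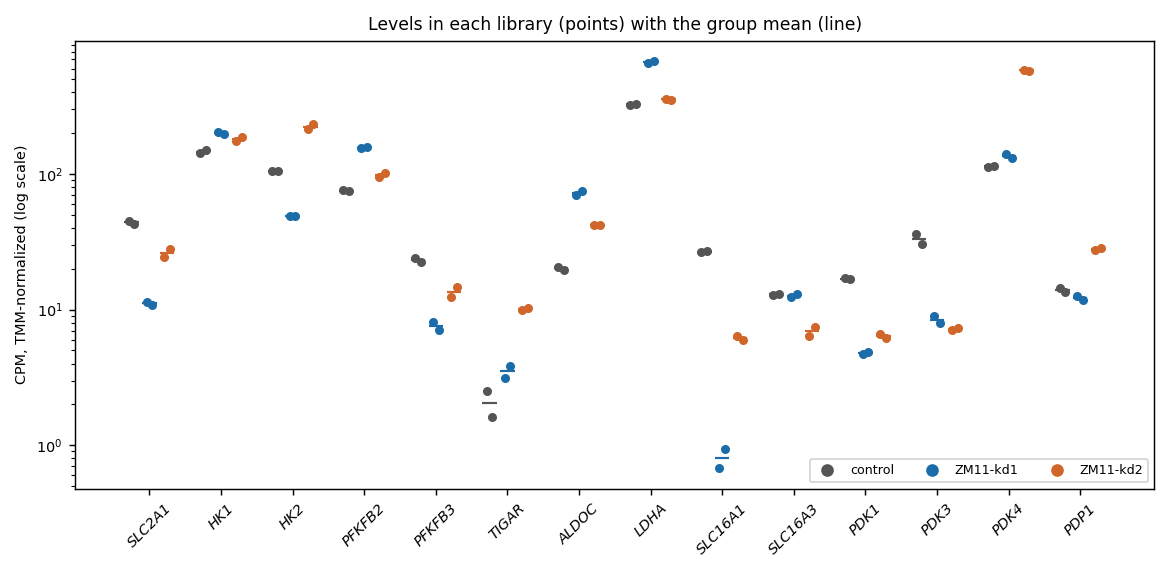
TMM-normalized CPM on a log axis for 14 members in each library (points) with the group mean (line), for control (grey), ZM11-kd1 (blue) and ZM11-kd2 (orange). The 2 libraries of a group lie close together for most genes, SLC16A1 spans 0.677 to 26.9 CPM over the groups, and PDK4 stands at 578 and 586 CPM in ZM11-kd2.

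Promoter sequences are shown for 4 members, HK2, LDHA, PDK1 and PDK4, which stand for glucose trapping, lactate formation and the switch on pyruvate dehydrogenase. They and their windows were chosen after the values and motif matches had been seen, and in ZM11-kd1 pairs without them moved further. Each window runs from 250 bases before to 50 after an annotated start in RefSeq (GRCh38.p14), and it is written 5′ to 3′ on the strand of the gene. Capitals mark CACGTG, the E-box letters bound by MYC and other basic helix-loop-helix factors, and ACGTG, the core of the hypoxia response element, on either strand. The E-box letters contain ACGTG on both strands, so that each E-box is also counted for the core. HK2, on the plus strand, is shown at chr2:74834920-74835219. LDHA, plus strand, is at chr11:18394313-18394612, PDK1, plus strand, at chr2:172555840-172556139, and PDK4, minus strand, at chr7:95596467-95596766.
HK2: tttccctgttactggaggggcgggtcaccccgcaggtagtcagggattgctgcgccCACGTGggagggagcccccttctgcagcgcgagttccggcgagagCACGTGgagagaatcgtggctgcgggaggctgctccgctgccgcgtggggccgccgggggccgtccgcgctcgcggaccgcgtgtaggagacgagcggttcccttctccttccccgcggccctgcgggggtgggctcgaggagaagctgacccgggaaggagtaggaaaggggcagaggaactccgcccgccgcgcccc
LDHA: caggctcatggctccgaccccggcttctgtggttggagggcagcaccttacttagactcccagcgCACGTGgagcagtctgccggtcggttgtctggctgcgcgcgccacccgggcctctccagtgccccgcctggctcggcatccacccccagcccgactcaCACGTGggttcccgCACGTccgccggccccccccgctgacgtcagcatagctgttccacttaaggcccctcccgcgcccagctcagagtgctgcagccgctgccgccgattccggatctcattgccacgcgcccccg
PDK1: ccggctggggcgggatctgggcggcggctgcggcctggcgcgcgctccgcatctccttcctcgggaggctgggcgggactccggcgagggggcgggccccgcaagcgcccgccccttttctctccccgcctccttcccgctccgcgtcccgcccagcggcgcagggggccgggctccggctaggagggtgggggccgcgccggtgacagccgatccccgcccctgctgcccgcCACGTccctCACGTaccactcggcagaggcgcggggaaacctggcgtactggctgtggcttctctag
PDK4: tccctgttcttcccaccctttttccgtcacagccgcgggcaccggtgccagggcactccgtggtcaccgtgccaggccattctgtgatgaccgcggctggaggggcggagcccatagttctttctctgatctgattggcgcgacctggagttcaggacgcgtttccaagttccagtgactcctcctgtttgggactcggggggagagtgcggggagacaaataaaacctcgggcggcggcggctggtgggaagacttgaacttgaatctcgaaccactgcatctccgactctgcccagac
The windows of HK2 and LDHA each hold 2 E-boxes, and LDHA holds 1 further match of the core. In PDK1 the core matches 2 times without an E-box, and in PDK4 neither motif matches. HK2, LDHA and PDK1 each have another start in the table whose window is not shown. That window holds no E-box in any of the 3 genes, with 2 matches of the core in HK2 and 0 in LDHA and PDK1. Of the 41 genes, 36 had a promoter in the table, and SLC16A1, PFKFB2, PDP1, SLC2A3 and LDHD had none. An E-box was found in at least 1 window of 9 of the 36 genes, against 8.77% of all 27305 genes with a promoter, and the core in 21 (58.3%), against 24.9%. GGGCGG, the GC box, was in 30 (83.3%), against 48.3%. The members had 68 windows for 36 genes and all genes 35116 for 27305, so that members had more windows per gene in which a motif could occur. Counted by window, the E-box was in 13.2% of the members' windows against 7.26% of all, the core in 36.8% against 21.4%, and the GC box in 64.7% against 44.95%. A match describes the letters in these windows and not a bound site.

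RNA of the main glucose transporter fell in both knockdowns. SLC2A1, the widely expressed glucose carrier, was at 45.1 and 43.0 CPM in control, 11.3 and 10.9 in ZM11-kd1 and 24.5 and 28.0 in ZM11-kd2. Every knockdown library was below both controls, and the ZM11-kd2 libraries lay between the other groups. The log2 fold change was -1.99 in ZM11-kd1 (SE 0.09, adjusted p = 5.97e-11, edgeR) and -0.75 in ZM11-kd2 (SE 0.08, adjusted p = 1.42e-06, edgeR), and the knockdowns differed by 1.24 (SE 0.09, adjusted p = 2.45e-08, edgeR). SLC2A12, a carrier known from muscle, fat and prostate, rose to 23.6 ± 5.57 CPM (SD, n = 2) in ZM11-kd2 from 11.5 ± 0.304 (SD, n = 2) in control, a log2 fold change of 1.03 (SE 0.14, adjusted p = 1.54e-05, edgeR). In ZM11-kd1 it was at 14.5 ± 1.92 CPM (SD, n = 2), which did not pass (log2 fold change 0.32, adjusted p = 0.063, edgeR). This value was -0.03 with library totals alone, but it was called without a filter (adjusted p = 0.0101, edgeR), with the replicate block (0.0456), in the fit of the compared groups (0.00826) and, at 0.92, after correction for GC content and length (3.64e-06). SLC2A12 shares 51.2% of its exon bases with genes on the other strand, and whether the authors counted by strand is not given in the sources used here. SLC2A3, the high-affinity carrier of neurons, had only 10 and 15 counts in control, 1 and 9 in ZM11-kd1 and 0 and 1 in ZM11-kd2. It was called lower in ZM11-kd2 (adjusted p = 0.00392, edgeR), and no fold is given because ZM11-kd2 was at or under 3 counts in both libraries.

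Per kb of exon, SLC2A1 made up 85.7% ± 0.280 (SD, n = 2) of the 3 carriers in control, 55.5% ± 4.32 (SD, n = 2) in ZM11-kd1 and 64.9% ± 3.30 (SD, n = 2) in ZM11-kd2. SLC2A12 held 13.6% in control, 43.8% in ZM11-kd1 and 35.0% in ZM11-kd2. The ratio of SLC2A12 to SLC2A1 rose 4.95-fold in ZM11-kd1 and 3.38-fold in ZM11-kd2. These folds do not depend on library scaling or on which exon length is used. On the log2 scale they were 2.31 and 1.76, and after correction for trends with GC content and length 2.89 and 1.84. Which carrier led depended on the length used, since with all annotated exons SLC2A12 led with 60.3% in ZM11-kd1 and 51.3% in ZM11-kd2. The use of that length was decided on with the data in view.

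The hexokinases, which trap glucose as glucose 6-phosphate, went apart in the knockdowns. HK1, the constitutive form, was at 142 and 151 CPM in control, 205 and 198 in ZM11-kd1 and 176 and 186 in ZM11-kd2, above both controls in every knockdown library. Its log2 fold change was 0.46 in ZM11-kd1 (SE 0.06, adjusted p = 2.56e-06, edgeR) and 0.31 in ZM11-kd2 (SE 0.06, adjusted p = 0.000174, edgeR). With library totals alone it was 0.11 in ZM11-kd1 (adjusted p = 0.101, edgeR), so that this rise is not called under every scaling, and in ZM11-kd2 it was 0.14 and still called. HK2, the inducible form that many tumours raise, stood at 106 and 105 CPM in control, 49.2 and 49.0 in ZM11-kd1 and 214 and 235 in ZM11-kd2. No groups overlapped, and control lay in the middle. HK2 fell in ZM11-kd1 (log2 fold change -1.10, SE 0.06, adjusted p = 3.87e-10, edgeR) and rose in ZM11-kd2 (1.09, SE 0.06, adjusted p = 4.38e-10, edgeR). The difference between the knockdowns was 2.19 (SE 0.06, adjusted p = 2.95e-12, edgeR). These directions were the same with library totals alone (-1.46 and 0.92) and after correction for GC content and length (-0.68 and 1.23).

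HKDC1, a hexokinase-like enzyme of low level here, had 44 and 58 counts in control, 12 and 3 in ZM11-kd1 and 64 and 56 in ZM11-kd2. It fell in ZM11-kd1 (log2 fold change -2.80, SE 0.46, adjusted p = 5.96e-05, edgeR), to -3.98 without ZM11-kd1 replicate 1 and to -2.22 without ZM11-kd1 replicate 2. In ZM11-kd2 its log2 fold change was 0.05 (adjusted p = 0.904, edgeR). Per kb, HK2 made up 31.3% ± 1.03 (SD, n = 2) of hexokinase reads in control, 13.5% ± 0.276 (SD, n = 2) in ZM11-kd1 and 43.9% ± 0.709 (SD, n = 2) in ZM11-kd2. The ratio of HK2 to HK1 was thus 2.96-fold lower than control in ZM11-kd1 and 1.72-fold higher in ZM11-kd2, and 5.08-fold higher in ZM11-kd2 than in ZM11-kd1. On the log2 scale these changes were -1.56, 0.78 and 2.34, and after correction for GC content and length -1.18, 0.91 and 2.09. HK1 led in all groups with the canonical transcripts, whereas with all annotated exons HK2 led in ZM11-kd2 with 58.6%.

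GPI, which turns glucose 6-phosphate into fructose 6-phosphate, rose from 175 and 178 CPM to 245 and 239.7 in ZM11-kd1 and 213 and 215 in ZM11-kd2. All 4 knockdown libraries were above both controls. The log2 fold changes were 0.46 (SE 0.05, adjusted p = 8.9e-07, edgeR) and 0.27 (SE 0.05, adjusted p = 0.000179, edgeR), and with library totals alone both were 0.10 and neither passed (adjusted p = 0.0789 and 0.0746, edgeR).

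Phosphofructokinase, the committing step, changed its make-up in ZM11-kd2. PFKM, the muscle subunit and the most abundant per kb in control, was at 196 and 204 CPM in control, 165 and 155 in ZM11-kd1 and 174 and 183 in ZM11-kd2. The log2 fold change of PFKM was -0.32 in ZM11-kd1 (SE 0.06, adjusted p = 9.64e-05, edgeR) and -0.16 in ZM11-kd2 (SE 0.05, adjusted p = 0.0148, edgeR). Without control replicate 2 the latter was -0.14 (adjusted p = 0.150, edgeR), and with library totals alone the values were -0.67 and -0.33, both called. PFKL, the liver subunit, was at 128 and 129 CPM in control, 114 and 113 in ZM11-kd1 and 61.0 and 58.1 in ZM11-kd2. It fell by 1.11 on the log2 scale in ZM11-kd2 (SE 0.06, adjusted p = 2.46e-10, edgeR) and was at -0.18 in ZM11-kd1 (SE 0.05, adjusted p = 0.00767, edgeR). The fall in ZM11-kd1 was larger with library totals alone (-0.53, adjusted p = 2.63e-07, edgeR) and after correction for GC content and length (-0.68, adjusted p = 6.51e-11, edgeR). Its call was lost without control replicate 2 (-0.17, adjusted p = 0.0624, edgeR) and without either ZM11-kd1 library (adjusted p = 0.0504 and 0.0626, edgeR). PFKP, the platelet subunit, was low at 8.93 CPM in control and was called in ZM11-kd2 (log2 fold change 0.32, adjusted p = 0.0321, edgeR). That call was lost with library totals alone (adjusted p = 0.299, edgeR), after correction for GC content and length (adjusted p = 0.0683, edgeR), in the DESeq2 Wald test (adjusted p = 0.0900), with at least 10 counts in each library (adjusted p = 0.0588, edgeR), without either control library (adjusted p = 0.0510 and 0.190, edgeR) and without ZM11-kd2 replicate 2 (0.0772). In ZM11-kd1 PFKP was at -0.20 (adjusted p = 0.168, edgeR), and was called lower with library totals alone (-0.56, adjusted p = 0.00133, edgeR) and after that correction (-0.55, adjusted p = 0.000823, edgeR). The ratio of PFKM to PFKL rose 1.93-fold in ZM11-kd2, and that of PFKP to PFKL 2.70-fold. In ZM11-kd1 these ratios were 0.906 and 0.983 times control. Both turned to rises after correction for GC content and length, at 0.41 and 0.13 on the log2 scale.

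The bifunctional PFKFB enzymes make or remove the sugar bisphosphate that activates phosphofructokinase, and TIGAR removes it. PFKFB2, the heart form, was at 75.6 and 74.8 CPM in control, 156 and 157 in ZM11-kd1 and 94.4 and 102 in ZM11-kd2. All knockdown libraries were above control, and those of ZM11-kd1 highest. Its log2 fold change was 1.06 in ZM11-kd1 (SE 0.06, adjusted p = 3.24e-10, edgeR) and 0.39 in ZM11-kd2 (SE 0.06, adjusted p = 2.65e-05, edgeR). These rises were called throughout, at 0.70 and 0.22 with library totals alone and at 1.75 and 0.61 after the GC and length correction. PFKFB3, the inducible form with the highest kinase activity, fell from 23.3 ± 1.00 CPM (SD, n = 2) to 7.59 ± 0.797 (SD, n = 2) in ZM11-kd1 and 13.5 ± 1.61 (SD, n = 2) in ZM11-kd2, with log2 fold changes of -1.61 (adjusted p = 9.89e-09, edgeR) and -0.79 (adjusted p = 1.51e-05, edgeR). The ratio of PFKFB2 to PFKFB3 rose 6.39-fold in ZM11-kd1 and 2.26-fold in ZM11-kd2. These changes were 2.68 and 1.17 on the log2 scale, and 3.24 and 1.29 after the GC and length correction. PFKFB2 made up 54.6%, 78.4% and 65.4% of this family per kb in control, ZM11-kd1 and ZM11-kd2, and PFKFB3 26.6%, 6.003% and 14.2%. PFKFB4 was at 10.8, 13.4 and 10.4 CPM and did not pass against control (adjusted p = 0.0584 and 0.714, edgeR), and PFKFB1 had 4 to 26 counts in a library. In ZM11-kd1 PFKFB4 was called higher without a filter (adjusted p = 0.0247, edgeR) and in the fit of the compared groups (0.0165), and PFKFB1 was called lower in that fit (0.0376), with library totals alone (0.0363) and after the GC and length correction (0.0422).

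TIGAR had 76 and 50 counts in control, 107 and 114 in ZM11-kd1 and 356 and 353 in ZM11-kd2. The ZM11-kd2 libraries were far above the rest. It rose by 2.30 on the log2 scale in ZM11-kd2 (SE 0.19, adjusted p = 7.19e-08, edgeR) and 0.76 in ZM11-kd1 (SE 0.22, adjusted p = 0.00535, edgeR). The rise in ZM11-kd1 was 0.48 without control replicate 2 (adjusted p = 0.0866, edgeR) and 0.41 with library totals alone (adjusted p = 0.100, edgeR), whereas the GC and length correction raised it to 1.55 (adjusted p = 1.98e-06, edgeR). TIGAR shares 20.8% of its exon bases with another gene annotated on the same strand, so that its counts may be incomplete.

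The aldolases split the 6-carbon sugar. ALDOC, the brain form, was at 20.5 and 19.7 CPM in control, 70.4 and 75.4 in ZM11-kd1 and 42.1 and 42.1 in ZM11-kd2. It rose in both knockdowns, by a log2 fold change of 1.86 (SE 0.07, adjusted p = 9.23e-12, edgeR) and 1.06 (SE 0.07, adjusted p = 6.31e-09, edgeR), and the groups did not overlap. ALDOA, the ubiquitous form, had only 55 to 97 counts in a library and did not pass in any comparison. After the GC and length correction it was called lower in ZM11-kd1 (-0.83, adjusted p = 0.0116, edgeR). That correction also called it higher in ZM11-kd2 than in ZM11-kd1 (0.97, adjusted p = 0.00357, edgeR). Of its canonical exon bases 89.8% are shared with another gene annotated on the same strand, so this count can miss most of its reads, and the ratio of ALDOC to ALDOA is uncertain.

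The triose steps held the most abundant of the 41 genes per kb. TPI1, which interconverts the triose phosphates, was at 982 and 1026 CPM in control, 809 and 838 in ZM11-kd1 and 803 and 692 in ZM11-kd2. Every knockdown library was below both controls, with log2 fold changes of -0.29 (SE 0.06, adjusted p = 0.000946, edgeR) and -0.42 (SE 0.06, adjusted p = 3.21e-05, edgeR). In ZM11-kd1 the fall was -0.64 with library totals alone and -0.84 after the GC and length correction. GAPDH, which makes NADH at this step and often serves as a reference gene, was at 1205 and 1246 CPM in control, 1206 and 1180.0 in ZM11-kd1 and 924 and 1011 in ZM11-kd2. The ZM11-kd1 and control libraries overlapped, and the ZM11-kd2 libraries were lowest. GAPDH fell by 0.34 on the log2 scale in ZM11-kd2 (SE 0.05, adjusted p = 5.34e-05, edgeR). In ZM11-kd1 it was at -0.04 (SE 0.05, adjusted p = 0.526, edgeR), at -0.39 with library totals alone (adjusted p = 7.45e-06, edgeR) and at -0.71 after correction for GC content and length (adjusted p = 4.63e-10, edgeR). Genes on the other strand share 32.8% of its exon bases.

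The next steps, which regenerate ATP and rearrange the phosphate, went in opposite directions. PGK1, the first ATP-making enzyme of the pathway, was at 272 and 283 CPM in control, 257 and 251 in ZM11-kd1 and 409 and 407 in ZM11-kd2. PGAM1, the main mutase, was at 164 and 169 CPM in control, 137 and 134 in ZM11-kd1 and 209 and 207 in ZM11-kd2. For both genes ZM11-kd1 was lowest and ZM11-kd2 highest, with no overlap. PGK1 rose by a log2 fold change of 0.56 in ZM11-kd2 (SE 0.05, adjusted p = 1.45e-07, edgeR) and PGAM1 by 0.32 (SE 0.05, adjusted p = 5.1e-05, edgeR). In ZM11-kd1 PGAM1 fell by 0.30 on the log2 scale (SE 0.05, adjusted p = 8.85e-05, edgeR). Its changes stayed called at -0.65 and 0.15 with library totals alone and at -0.64 and 0.19 after the GC and length correction. The fall of PGK1 there was small, at -0.13 (SE 0.05, adjusted p = 0.0303, edgeR). It was -0.48 with library totals alone (adjusted p = 2.62e-07, edgeR). The call was lost with the replicate block (adjusted p = 0.0687, edgeR) and without any 1 of the control or ZM11-kd1 libraries (-0.16 to -0.10, adjusted p = 0.0650 to 0.241, edgeR) and turned to a rise of 0.37 after correction for GC content and length (adjusted p = 2.89e-07, edgeR). BPGM, a mutase known from red cells where it makes the ligand that lowers the oxygen affinity of haemoglobin, rose from 24.3 and 23.1 CPM to 47.2 and 47.0 in ZM11-kd1 and 35.6 and 36.0 in ZM11-kd2. Its log2 fold changes were 0.99 (SE 0.07, adjusted p = 7.88e-09, edgeR) and 0.60 (SE 0.07, adjusted p = 3.11e-06, edgeR), and the first was 0.64 with library totals alone. BPGM took 26.8% of mutase reads per kb in ZM11-kd1, against 13.0% in control and 15.4% in ZM11-kd2.

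Among the enolases, ENO1, the ubiquitous form, was at 569.8 and 594 CPM in control, 874 and 873 in ZM11-kd1 and 658 and 631 in ZM11-kd2. It rose by a log2 fold change of 0.58 in ZM11-kd1 (SE 0.05, adjusted p = 6.16e-08, edgeR), which came to 0.23 with library totals alone and 0.18 after the GC and length correction, both called. The rise of 0.15 in ZM11-kd2 (SE 0.05, adjusted p = 0.0168, edgeR) was lost without control replicate 1 (0.12, adjusted p = 0.201, edgeR) and without control replicate 2 (0.18, adjusted p = 0.0536, edgeR), with at least 10 counts in each library (0.0676) and after the GC and length correction (0.429), and was -0.02 with library totals alone. ENO2, the neuronal form and a marker of neuroendocrine cells, was at 149 and 154 CPM in control, 209 and 199 in ZM11-kd1 and 112 and 113 in ZM11-kd2. It was higher than control in ZM11-kd1 (log2 fold change 0.43, SE 0.05, adjusted p = 3.3e-06, edgeR) and lower in ZM11-kd2 (-0.43, SE 0.05, adjusted p = 4.24e-06, edgeR). Scaled to library totals alone, the rise was 0.07 (adjusted p = 0.234, edgeR), and after the GC and length correction 0.16 (adjusted p = 0.00343, edgeR). ENO3, the muscle form, fell from 29.7 and 29.5 CPM to 22.7 and 22.9 in ZM11-kd1 and to 11.06 and 11.04 in ZM11-kd2, with log2 fold changes of -0.38 (SE 0.08, adjusted p = 0.000659, edgeR) and -1.42 (SE 0.09, adjusted p = 1.81e-09, edgeR). The first was -0.73 with library totals alone and -0.99 after the GC and length correction. ENO1 held 79.1%, 82.4% and 86.5% of enolase reads per kb in control, ZM11-kd1 and ZM11-kd2. The ratio of ENO3 to ENO1 was 1.95-fold lower in ZM11-kd1 and 2.97-fold lower in ZM11-kd2.

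LDHA, the subunit that favours lactate from pyruvate, rose mainly in ZM11-kd1. It was at 326 and 329 CPM in control, 663 and 681 in ZM11-kd1 and 357 and 354 in ZM11-kd2. Its log2 fold change was 1.04 in ZM11-kd1 (SE 0.05, adjusted p = 7.94e-11, edgeR) and 0.12 in ZM11-kd2 (SE 0.05, adjusted p = 0.0425, edgeR), and the knockdowns differed by -0.92 (SE 0.05, adjusted p = 7.39e-10, edgeR). With library totals alone the rise in ZM11-kd1 was 0.68 (adjusted p = 2.05e-09, edgeR). The small rise in ZM11-kd2 was lost without control replicate 1 or 2 (adjusted p = 0.229 and 0.160, edgeR) and without ZM11-kd1 replicate 1 or 2 (0.0691 and 0.0676), with at least 10 counts in each library (0.157), with the replicate block (0.0924) and in the fit of the compared groups (0.0942), and was -0.05 with library totals alone and -0.04 after correction for GC content and length. LDHB, the subunit that favours pyruvate, had 115 and 133 counts in control, 191 and 208 in ZM11-kd1 and 75 and 57 in ZM11-kd2. It fell by 1.10 on the log2 scale in ZM11-kd2 (SE 0.21, adjusted p = 0.000283, edgeR) and rose by 0.65 in ZM11-kd1 (SE 0.18, adjusted p = 0.00534, edgeR). That rise was 0.55 without control replicate 1 (adjusted p = 0.0523, edgeR), 0.48 without ZM11-kd1 replicate 2 (adjusted p = 0.0676, edgeR), 0.29 with library totals alone (adjusted p = 0.157, edgeR) and 0.33 after correction for GC content and length (adjusted p = 0.0984, edgeR). Another gene annotated on the same strand shares 76.5% of the exon bases of LDHB, so its reads may be undercounted. LDHD, the mitochondrial D-lactate dehydrogenase, was at 7.79 and 8.98 CPM in control, 7.74 and 9.26 in ZM11-kd1 and 3.83 and 3.97 in ZM11-kd2. Only ZM11-kd2 lay apart from control, with a log2 fold change of -1.10 (SE 0.15, adjusted p = 1.41e-05, edgeR). In ZM11-kd1 it was 0.02 (adjusted p = 0.925, edgeR), -0.34 with library totals alone (adjusted p = 0.0410, edgeR), and -0.70 after correction for GC content and length (adjusted p = 0.000161, edgeR).

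Lactate leaves the cell through monocarboxylate transporters, and in ZM11-kd1 SLC16A1 changed the most of all 41 genes. SLC16A1, the carrier that moves lactate in either direction, had 805 and 834 counts in control, 23 and 28 in ZM11-kd1 and 230 and 203 in ZM11-kd2. In CPM this was 26.7 ± 0.283 (SD, n = 2), 0.811 ± 0.190 (SD, n = 2) and 6.18 ± 0.362 (SD, n = 2). The groups stood far apart, with ZM11-kd1 lowest. SLC16A1 fell 33.0-fold in ZM11-kd1 (log2 fold change -5.05, SE 0.16, adjusted p = 1.91e-12, edgeR) and 4.31-fold in ZM11-kd2 (-2.11, SE 0.12, adjusted p = 7.23e-10, edgeR). Between the knockdowns the difference was 2.94 (SE 0.19, adjusted p = 4.35e-09, edgeR).

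SLC16A3, the exporter typical of glycolytic cells, was at 13.0 ± 0.135 CPM (SD, n = 2) in control, 12.7 ± 0.367 (SD, n = 2) in ZM11-kd1 and 6.93 ± 0.812 (SD, n = 2) in ZM11-kd2. It fell in ZM11-kd2 (log2 fold change -0.91, SE 0.12, adjusted p = 8.28e-06, edgeR), while in ZM11-kd1 the value of -0.03 did not pass (adjusted p = 0.794, edgeR) and became -0.39 with library totals alone (adjusted p = 0.00754, edgeR) and -0.68 after correction for GC content and length (adjusted p = 2.83e-05, edgeR). SLC16A1 made up 58.7% ± 0.00665 (SD, n = 2) of the pair per kb in control, 4.22% ± 0.833 (SD, n = 2) in ZM11-kd1 and 38.3% ± 4.15 (SD, n = 2) in ZM11-kd2. The ratio of SLC16A3 to SLC16A1 rose 32.5-fold in ZM11-kd1 and 2.29-fold in ZM11-kd2. On the log2 scale the change in ZM11-kd1 was 5.02, which the correction for GC content and length lowered to 4.02. In ZM11-kd1 SLC16A3 led with either length, and in ZM11-kd2 SLC16A1 led with all annotated exons, at 56.5%.

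Pyruvate enters mitochondria through a carrier of 2 subunits. MPC2, the more abundant per kb, was at 82.6 and 90.6 CPM in control, 142 and 151 in ZM11-kd1 and 83.3 and 77.0 in ZM11-kd2. It rose in ZM11-kd1 (log2 fold change 0.76, SE 0.06, adjusted p = 5.13e-08, edgeR), and its ZM11-kd2 libraries overlapped control (-0.11, adjusted p = 0.135, edgeR). The value in ZM11-kd2 was called lower with library totals alone (-0.28, adjusted p = 0.000778, edgeR), after the GC and length correction (-0.25, adjusted p = 0.000395, edgeR) and with at least 10 counts in each library (-0.15, adjusted p = 0.0456, edgeR), and the rise in ZM11-kd1 was 0.40 with library totals alone. MPC1 rose in both, from 17.7 ± 0.136 CPM (SD, n = 2) to 29.4 ± 0.323 (SD, n = 2) and 25.8 ± 2.39 (SD, n = 2), with log2 fold changes of 0.73 (adjusted p = 2.52e-06, edgeR) and 0.54 (adjusted p = 6.58e-05, edgeR). The GC and length correction lowered these to 0.30 and 0.32, and library totals alone lowered the first to 0.38, all called. The ratio of MPC2 to MPC1 was 1.02 times control in ZM11-kd1 and 1.57-fold lower than control in ZM11-kd2. On the log2 scale this was 0.03 and -0.65, and 0.45 and -0.57 after the GC and length correction.

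Of the pyruvate dehydrogenase complex, PDHB, the beta subunit of the first enzyme, was at 56.7 and 59.0 CPM in control, 78.0 and 81.9 in ZM11-kd1 and 39.1 and 36.4 in ZM11-kd2. PDHA1, the alpha subunit that carries the regulatory phosphates, was at 83.7 and 79.8 CPM in control, 103 and 106 in ZM11-kd1 and 70.7 and 64.6 in ZM11-kd2. Both subunits were highest in ZM11-kd1 and lowest in ZM11-kd2. PDHB had log2 fold changes of 0.47 (SE 0.06, adjusted p = 9.79e-06, edgeR) and -0.61 (SE 0.07, adjusted p = 9.59e-07, edgeR), and PDHA1 of 0.36 (SE 0.06, adjusted p = 9.13e-05, edgeR) and -0.27 (SE 0.06, adjusted p = 0.00116, edgeR). With library totals alone the rises were 0.11 for PDHB (adjusted p = 0.120, edgeR) and 0.00 for PDHA1 (adjusted p = 0.980, edgeR), while the falls in ZM11-kd2 were called, that of PDHA1 at -0.44. The GC and length correction gave rises of 0.24 for PDHB and 0.60 for PDHA1 in ZM11-kd1, both called. DLAT, the second enzyme of the complex, fell in both, from 78.1 and 80.1 CPM to 53.2 and 50.6 in ZM11-kd1 and 45.1 and 50.4 in ZM11-kd2. Its log2 fold changes were -0.61 (SE 0.07, adjusted p = 1.09e-06, edgeR) and -0.73 (SE 0.07, adjusted p = 2.06e-07, edgeR). After correction for GC content and length the first was -0.23 (adjusted p = 0.00157, edgeR), and with library totals alone -0.96.

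The 4 pyruvate dehydrogenase kinases switch the complex off by phosphorylation, and their balance moved to PDK4. PDK4, the form induced by fasting, was at 113 and 115 CPM in control, 139.8 and 130.5 in ZM11-kd1 and 586 and 578 in ZM11-kd2. The ZM11-kd2 libraries stood far above all others. Its log2 fold change was 2.35 in ZM11-kd2 (SE 0.05, adjusted p = 1.77e-13, edgeR) and 0.24 in ZM11-kd1 (SE 0.05, adjusted p = 0.00093, edgeR), and the difference between knockdowns was 2.11 (SE 0.05, adjusted p = 2e-12, edgeR). With library totals alone the value in ZM11-kd1 turned to -0.11 (adjusted p = 0.0636, edgeR), whereas after correction for GC content and length it was 0.58.

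The other kinases were lower in ZM11-kd2. PDK1, the form induced in hypoxia, went from 17.02 and 16.8 CPM to 4.74 and 4.86 in ZM11-kd1 and 6.61 and 6.13 in ZM11-kd2, with log2 fold changes of -1.82 (SE 0.12, adjusted p = 3.82e-09, edgeR) and -1.41 (SE 0.12, adjusted p = 5.71e-08, edgeR). After correction for GC content and length these were -0.78 and -0.92, and the fall passed in both. PDK3 went from 33.3 ± 3.72 CPM (SD, n = 2) to 8.45 ± 0.670 (SD, n = 2) and 7.26 ± 0.176 (SD, n = 2), with log2 fold changes of -1.97 (adjusted p = 4.84e-10, edgeR) and -2.19 (adjusted p = 2.91e-10, edgeR). PDK2, the widely expressed form, fell in ZM11-kd2 (-1.004, adjusted p = 3.81e-05, edgeR) and was at -0.17 in ZM11-kd1 (adjusted p = 0.289, edgeR), where it was called lower with library totals alone (-0.53, adjusted p = 0.00527, edgeR) and after the GC and length correction (-0.41, adjusted p = 0.0114, edgeR). PDK2 has 62.8% of its exon bases shared with a gene on the other strand. PDK4 made up 57.02% ± 2.64 (SD, n = 2) of kinase reads per kb in control, 81.6% ± 0.0310 (SD, n = 2) in ZM11-kd1 and 96.2% ± 0.368 (SD, n = 2) in ZM11-kd2. PDK3 held 34.2%, 10.5% and 2.48%. The shares other than the lead of PDK4 rest on the length used: with all annotated exons PDK4 held 82.6%, 91.3% and 98.5%, and PDK3 6.24%, 1.48% and 0.320%. The ratio of PDK4 to PDK1 rose 4.15-fold in ZM11-kd1 and 13.5-fold in ZM11-kd2. These changes were 2.05 and 3.76 on the log2 scale, and 1.36 and 3.19 after correction for GC content and length.

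The phosphatases, which undo that phosphorylation, rose in ZM11-kd2 with PDK4. PDP2, the more abundant per kb, was at 38.6 and 36.1 CPM in control, 41.8 and 40.8 in ZM11-kd1 and 63.3 and 64.0 in ZM11-kd2. PDP1 was at 14.4 and 13.6 CPM in control, 12.7 and 11.8 in ZM11-kd1 and 27.4 and 28.4 in ZM11-kd2. In ZM11-kd2 both passed, with log2 fold changes of 0.77 for PDP2 (SE 0.07, adjusted p = 7.94e-08, edgeR) and 0.99 for PDP1 (SE 0.09, adjusted p = 1.82e-07, edgeR). Between the knockdowns PDP1 differed by 1.19 (adjusted p = 3.8e-08, edgeR) and PDP2 by 0.62 (adjusted p = 8.43e-07, edgeR). In ZM11-kd1 their signs depended on the processing, since PDP1 was at -0.19, at -0.55 with library totals alone and at 0.25 after correction for GC content and length, and PDP2 at 0.15, at -0.21 with library totals alone and at 0.83 after that correction.

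Of the 18 isoenzyme pairs set up for comparison, 10 moved by at least 1.5-fold in ZM11-kd1, 7 up and 3 down. In ZM11-kd2, 13 of 17 moved, 9 up and 4 down, and the ratio of SLC2A3 to SLC2A1 could not be formed there because of a count of 0. Between the knockdowns 14 of 17 moved, and 9 of these were lower in ZM11-kd2. With 2 libraries against 2, the exact permutation test (two-sided, 6 divisions) cannot give a p under 0.333 for any ratio. In every pair that moved against control, the knockdown and control libraries did not overlap. This does not mark them out, since pairs that did not move, such as PFKM/PFKL and ENO2/ENO1 in ZM11-kd1, did not overlap either. The share without overlap among other pairs of genes was not computed.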

How the data were processed

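RNA was sequenced from 22Rv1 cells in 6 libraries, 2 in each of control, ZM11-kd1 and ZM11-kd2, with groups taken from the deposited labels. The authors deposited raw counts of reads per gene symbol, made after read checks with FastQC 0.11.9, adapter trimming with AdapterRemoval and alignment to hg38 with STAR 2.7.9a. HTSeq 0.13.5 is named in the submitters' processing notes, and its mode, strand setting and annotation are not given in the sources used here. The kit isolates mRNA by poly(A) capture or by removal of ribosomal RNA, and which was used is not given in the sources used here. No row without a gene name was present.

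From these counts, edgeR 4.0.16 (R 4.3.3, limma 3.58.1) fitted all 3 groups together with TMM scaling, its default filter on low counts and the quasi-likelihood test with 3 residual degrees of freedom. Adjusted p-values are Benjamini-Hochberg over 16510 genes, and the standard error is the log2 fold change divided by the root of the F statistic. Library totals ran from 26844128 to 38193748 counts, which limits precision for genes of a few counts. The fit was tested on simulated data for 16097 genes, of which 108 were changed by 1 and 92 by 2 on the log2 scale. The changes were the same in both knockdowns, and no trend with GC content or length was put in. It recovered 83.3% of genes changed by 1 and 93.5% of those changed by 2 in ZM11-kd1, and 81.5% and 93.5% in ZM11-kd2. Of the calls 5.88% and 6.95% were false. In the real data most genes were called and such trends were present, so these rates do not carry over to them.

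Levels are compared between genes only per kb of canonical transcript exons (GENCODE 44, GRCh38), for which 32852 symbols were matched by name and 2470 were not. Isoenzyme ratios were compared with a two-sided exact permutation test. Genes given with values in every library were, in each family, the member highest per kb in control and the called member with the largest change, every gene alone in its role, and those called in opposite directions. PDK1 was also given in this way, outside that rule. Of pathway lists, at most 2 genes with the largest mean change among those called in both knockdowns are named. The members and lists were chosen with earlier results of these data known. The alternatives were 8 other settings (size factors and the Wald test of DESeq2 1.42.0, scaling to library totals alone, a lowess correction with span 0.3 for GC content and length, the replicate number as a block, a fit of the compared groups only, and the count filter dropped or raised to 10 in each library) and leaving out each library. Tables and plots were made in Python 3.11.15 with numpy 2.4.6, pandas 2.3.3 and matplotlib 3.10.9. Some genes are not reported here.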

Additional observations from a re-analysis of the deposited data

Results flagged for a closer look

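Called in opposite directions against control in the 2 knockdowns, 7 members differed between the knockdowns in the edgeR test of that difference. They were picked by opposite calls against the same controls, so this call and the lack of overlap below nearly follow from the choice. Neither adds support, and the share of all genes with opposite calls was not computed. HK2 was higher in ZM11-kd2 than in ZM11-kd1 by 2.19 on the log2 scale (adjusted p = 2.95e-12), PGK1 by 0.68 (adjusted p = 1.97e-08) and PGAM1 by 0.62 (adjusted p = 6.88e-08). Lower in ZM11-kd2 than in ZM11-kd1 were ENO2 at -0.86 (adjusted p = 3.49e-09), LDHB at -1.74 (adjusted p = 2.33e-06), PDHA1 at -0.63 (adjusted p = 4.23e-07) and PDHB at -1.08 (adjusted p = 2.7e-09). The difference between the knockdowns kept its call in every alternative for all 7 genes. The calls in opposite directions against control did so for HK2 and PGAM1 alone, since the call in ZM11-kd1 was lost or reversed in at least 1 alternative for PGK1, ENO2, LDHB, PDHA1 and PDHB. The libraries of the knockdowns did not overlap for any of the 7 genes. ZMYND11 itself was at 27.7 and 26.1 CPM in ZM11-kd1 and at 21.6 and 22.7 in ZM11-kd2, and the part of that difference was not tested.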

How the results depend on the processing

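With library totals alone, 4596 of all genes were called higher and 8420 lower in ZM11-kd1, against 6310 and 6572 with TMM, and in ZM11-kd2 4967 and 7220, against 6031 and 6087. Members called were then 7 higher and 22 lower in ZM11-kd1. Log2 fold changes that turned with library totals alone were, in ZM11-kd1, SLC2A12 to -0.0318, PFKFB4 to -0.0445, LDHD to -0.34, PDK4 to -0.11 and PDP2 to -0.21. In ZM11-kd2 they were HKDC1 to -0.12, ENO1 to -0.0238 and LDHA to -0.0533, and between the knockdowns HK1 to 0.0302, GPI to 0.0032, TPI1 to 0.0445 and DLAT to 0.0648. After correction for GC content and length PGK1 turned to 0.37, LDHD to -0.70 and PDP1 to 0.25 in ZM11-kd1, LDHA to -0.0360 in ZM11-kd2, and between the knockdowns TPI1 to 0.28, GAPDH to 0.24, MPC1 to 0.0189 and PDK1 to -0.14. With at least 10 counts in every library LDHD in ZM11-kd1 turned to -0.0279, and SLC2A3, HKDC1 and PFKFB1 were not tested. The cause was not tested for any of these. A 2-fold limit left 7 isoenzyme pairs that moved in ZM11-kd2.

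Leaving out 1 library at a time turned 6 values, none of them called. HKDC1 in ZM11-kd2 ran from -0.13 to 0.25, PFKFB4 in ZM11-kd2 from -0.23 to 0.13, ALDOA from -0.31 to 0.0573 in ZM11-kd1 and from -0.0167 to 0.49 in ZM11-kd2, LDHD in ZM11-kd1 from -0.11 to 0.15, and PFKFB1 between the knockdowns from -1.21 to 0.88. Replicate numbers did not pair the samples, since the deviations of libraries with the same number had correlations of 0.0062, -0.0264 and -0.044 over 16510 genes. With a replicate block 16 members were called higher and 13 lower in ZM11-kd1, 16 and 19 in ZM11-kd2, and 15 and 18 between the knockdowns. DESeq2 size factors in edgeR left each of 123 values of single members on its side of the threshold, and the DESeq2 Wald test 121 of 123. Shares by the length of all annotated exons were computed after the data had been seen.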

Other observations

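Outside the 41 genes, lists of neighbouring pathways are given by their edgeR calls, with no test of any list. Of all genes tested, 38.2% were called higher and 39.8% lower in ZM11-kd1, and 36.5% and 36.9% in ZM11-kd2, so that most genes of any list would be called, and the counts below are descriptions. Of 7 pentose phosphate genes 5 were higher and 2 lower in ZM11-kd1, and 4 and 1 in ZM11-kd2. RPIA, a ribose phosphate isomerase, rose by 0.64 in ZM11-kd1 and 1.10 in ZM11-kd2 on the log2 scale. Of 17 genes of the tricarboxylic acid cycle 10 were higher and 3 lower in ZM11-kd1, and 11 and 4 in ZM11-kd2. IDH2, the mitochondrial NADP-dependent isocitrate dehydrogenase, fell from 40.4 and 39.2 CPM to 4.53 and 4.46 in ZM11-kd1 and 6.13 and 7.36 in ZM11-kd2, with log2 fold changes of -3.14 (adjusted p = 5.13e-12) and -2.56 (adjusted p = 3.42e-11). IDH3G, a subunit of the NAD-dependent enzyme, rose by 1.51 and 0.77.

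Of 9 genes of the cytosolic NADH shuttles 6 were higher and 1 lower in each knockdown, with MDH1 at 1.66 and 1.35 and GOT2 at 1.06 and 0.63 on the log2 scale. In the serine branch 3 of 5 genes were higher in each knockdown, with 1 lower in ZM11-kd1 and 2 in ZM11-kd2. PSAT1, which makes phosphoserine, rose by 1.34 and 1.48, and SHMT1 fell by 1.67 and 1.59 on the log2 scale. Of 10 glycogen and galactose genes tested 7 were higher and 3 lower in ZM11-kd1, and 5 and 4 in ZM11-kd2. PYGM, muscle glycogen phosphorylase, rose by 2.01 and 2.48, and PYGL, the liver form, fell by 1.34 and 1.16 on the log2 scale.

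SLC16A7, another monocarboxylate carrier, fell from 21.0 and 18.3 CPM to 2.38 and 2.70 in ZM11-kd1 and 3.30 and 2.39 in ZM11-kd2, with log2 fold changes of -2.95 (adjusted p = 4.51e-10) and -2.78 (adjusted p = 1.01e-09). It belongs to a list of 13 further isoenzymes and partners tested, of which 5 were higher and 7 lower in ZM11-kd1 and 4 and 6 in ZM11-kd2. Of 4 gluconeogenic genes tested 1 was higher and 2 lower in ZM11-kd1, and 1 and 1 in ZM11-kd2. PCK2 was at -1.31 in ZM11-kd1 and 0.30 in ZM11-kd2, and G6PC3 at 0.34 and -0.67, all of them called. Of 5 glucose sensing genes 2 were higher and 1 lower in ZM11-kd1, and 3 and 2 in ZM11-kd2. ARRDC4 rose by 1.57 and 1.18, and MLXIPL, a glucose-responsive transcription factor, was at -0.30 (adjusted p = 0.0244) and -2.62 (adjusted p = 2.91e-10).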
